A study of Mus musculus with 9 samples.

Results

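Glycolysis, lactate and pentose phosphate genes were followed in sorted leukemia cells of the MLL-AF9 mouse model of acute myeloid leukemia (AML). The set holds 36 genes of the 55536 in the expression table, taken by gene name. They cover glucose uptake, the steps of glycolysis, lactate production and transport, the kinases that hold back pyruvate dehydrogenase, and the pentose phosphate pathway. Aldoa has a pair of gene identifiers, and the one with the higher mean was used (the other averaged 1.82 TPM, the transcript abundance scaled to the total of its library). A filter of at least 1 TPM in at least 3 of the 9 libraries left 13722 genes for testing, 34 of the 36 among them. Eno2 stayed at or under 0.74 TPM and Pdk4 at or under 0.02 TPM in every library, and these genes were not tested.

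The data held 3 groups with 3 libraries each. All cells carried MLL-AF9 with GFP from a retrovirus and a second retrovirus with BFP, and GFP+BFP+ cells grew for 18 days in the bone marrow of C57BL/6J recipients of 6 to 8 weeks that were not irradiated (100000 cells per mouse). MA9-IL-34 cells carried the IL-34 retrovirus and are labelled as c-kit+ leukemic cells, while the methods of the study name a sort of these cells without naming c-Kit. Cells of the MA9-c-Kit+ and of the MA9-c-Kit- group carried the blank BFP retrovirus and were sorted with and without the receptor c-Kit, which the study uses to mark cells enriched for leukemia stem cells. The groups are called IL-34 cells, c-Kit+ cells and c-Kit- cells in what follows. The IL-34 and blank vectors were put into separate cell populations, so an effect of IL-34 and a difference between the infected populations cannot be told apart, and IL-34 against c-Kit- cells differ in both the vector and the sort. Whether replicate libraries stem from different mice is not stated in the labels, and p-values therefore measure the spread between these libraries only.

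Kit itself was at 112, 90.5 and 111 TPM in IL-34 cells, 135, 117 and 70.6 TPM in c-Kit+ cells and 2.46, 2.9 and 1.63 TPM in c-Kit- cells. The mouse gene Il34 was listed at 0.11, 0.1 and 0.14 TPM in IL-34 cells and at 0 in the other 6 libraries. The study verified IL-34 by ELISA, Western blot and qRT-PCR, and its primer list names the target hIL-34. Whether the values of mouse Il34 count the transcript of the vector is not known. Libraries summed to between 977577 and 988051 TPM, and 12577 to 12972 genes reached 1 TPM. The read depth behind the values is unknown. c-Kit+ replicate 2 stood apart in the share of TPM from mitochondrially encoded genes (5.10%, against 8.79% to 11.1% in the other 8 libraries). c-Kit- replicate 3 stood apart in erythroid markers, which summed to 2543 TPM there and to between 25.8 and 85.5 TPM elsewhere. T cell markers summed to at most 2.12 TPM and NK cell markers to at most 1.34 TPM in any library. B cell markers summed to between 46.3 and 282 TPM, with the highest sum in c-Kit+ replicate 2. Stromal and endothelial markers summed to between 67.4 and 199 TPM.

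Glycolysis splits glucose into pyruvate, and its pace is set at hexokinase, at phosphofructokinase and at pyruvate kinase. Lactate dehydrogenase then turns pyruvate into lactate and back, and monocarboxylate carriers move lactate across the membrane. The pentose phosphate pathway branches off after hexokinase. Its oxidative arm makes NADPH, and its non-oxidative arm makes ribose phosphate for nucleotides and returns sugars to glycolysis. Rapidly dividing myeloid and leukemic cells are known for a high flux through these routes. RNA levels, as measured here, do not give flux.

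The set was among the abundant RNAs of every library, at 1.48% to 1.56% of TPM in IL-34 cells, 1.22% to 1.45% in c-Kit+ cells and 1.11% to 1.3% in c-Kit- cells. The 36 genes summed to 14909 ± 433 TPM in IL-34 cells, 12965 ± 1165 TPM in c-Kit+ cells and 11792 ± 963 TPM in c-Kit- cells (SD, n = 3 each, as for all means given with ±). Gapdh was the most abundant member in every library. In IL-34 cells all 3 sums lay above those of the other groups. With median-of-ratios scaling the means were 14504 ± 396 TPM in IL-34 and 12929 ± 1742 TPM in c-Kit+ cells. With that scaling c-Kit+ replicate 3 no longer lay below all IL-34 libraries. The sum is dominated by a few genes of high level, and single members differed in both directions, as the plot of levels by library shows.

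**Figure D1:**
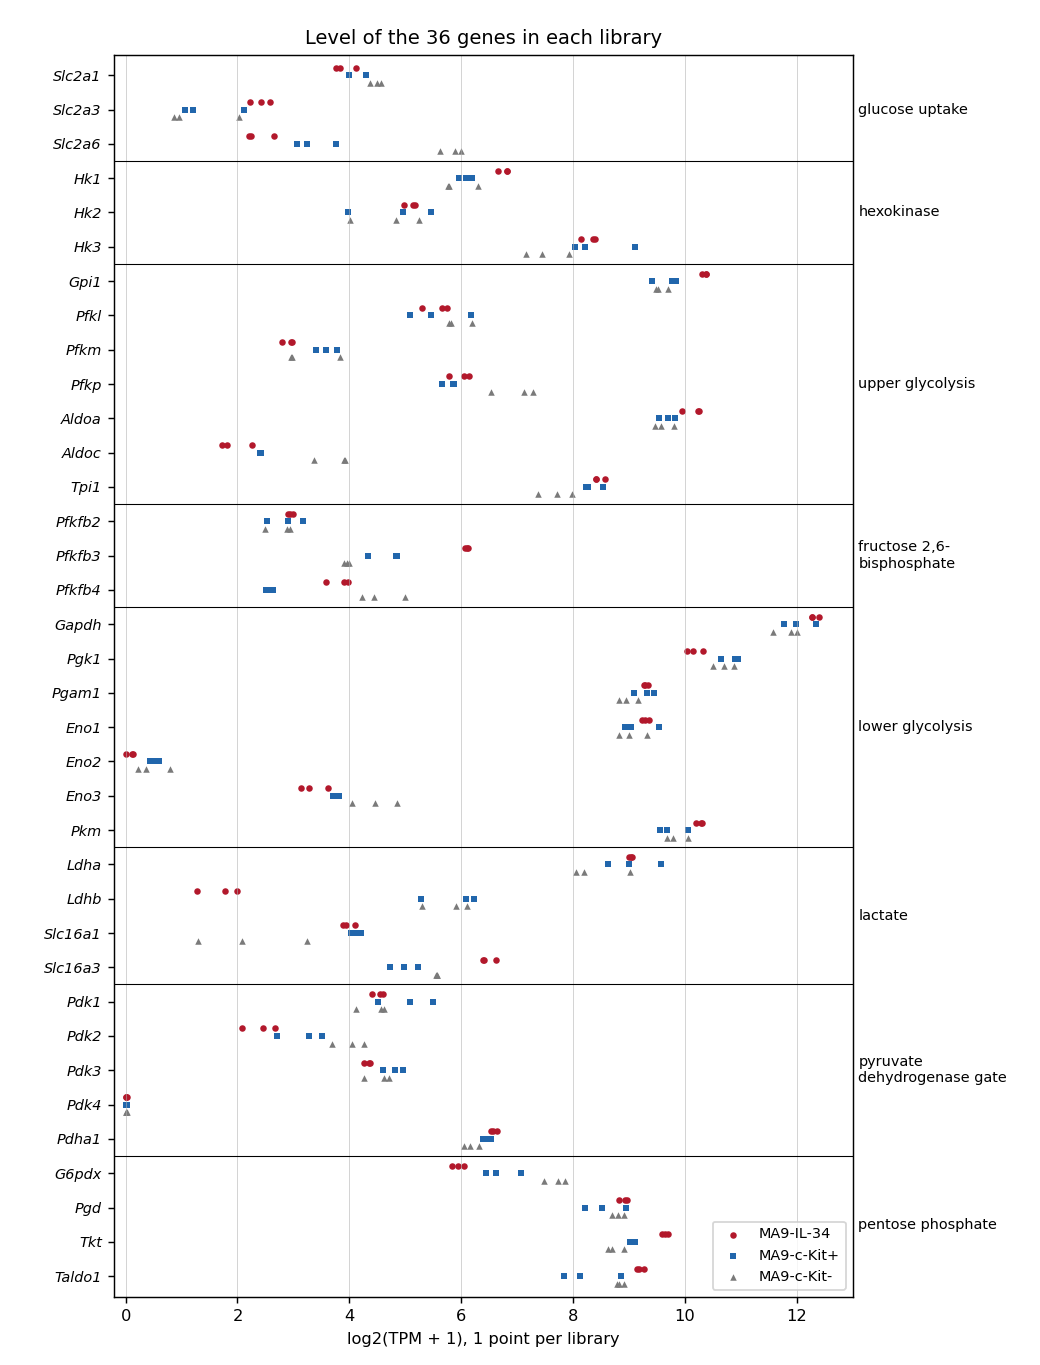
Level of each of the 36 genes as log2(TPM + 1) in IL-34 (circles), c-Kit+ (squares) and c-Kit- cells (triangles), 1 point per library, grouped by step. Levels ran from listed at 0 for Pdk4 to 5375 TPM for Gapdh, and Ldhb showed the widest gap between IL-34 cells and both other groups.

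Between IL-34 and c-Kit+ cells a short list of members changed. Pfkfb3, Pfkfb4 and Slc16a3 rose in IL-34 cells and Ldhb fell. A gene was called at a fold change of at least 2 with an adjusted p under 0.05 (limma on log2(TPM + 1), Benjamini-Hochberg adjustment over all genes tested), and log2 fold changes are given ± their standard error. By this rule 3 of the 34 tested members rose and 1 fell, while 3.86% of all tested genes rose and 3.38% fell. With the adjusted p alone and no minimum fold, 7 members were higher and 4 were lower in IL-34 cells, against a background of 7.43% higher and 5.49% lower. With 1 library left out these were 5 to 9 higher and 1 to 6 lower, with 1 lower without IL-34 replicate 3 and 2 lower without IL-34 replicate 2. The median log2 fold change was 0.09 over the tested members and 0.01 over all genes tested.

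Against c-Kit- cells, 3 members rose in IL-34 cells (Slc2a3, Pfkfb3 and Slc16a1) and 6 fell (Slc2a6, Aldoc, Eno3, Ldhb, Pdk2 and G6pdx), where 11.3% of all tested genes rose and 12.7% fell. Without a minimum fold, 13 members were higher and 10 were lower, on a background of 26.6% and 23.4%, and with 1 library left out 9 to 15 and 9 to 10. The median was 0.28 over the members and 0.06 over all genes. In c-Kit+ against c-Kit- cells, Slc16a1 alone rose and 4 members fell (Slc2a6, Pfkp, Aldoc and Pfkfb4), where 5.66% of all tested genes rose and 9.15% fell. Without a minimum fold 6 were higher and 8 were lower (background 19.3% and 19%; 3 to 8 and 6 to 9 with 1 library left out, with 3 higher without c-Kit- replicate 1), with a median of 0.11 over the members and 0.03 over all genes. The comparisons share libraries pairwise, so their counts are not independent of each other.

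**Figure D2:**
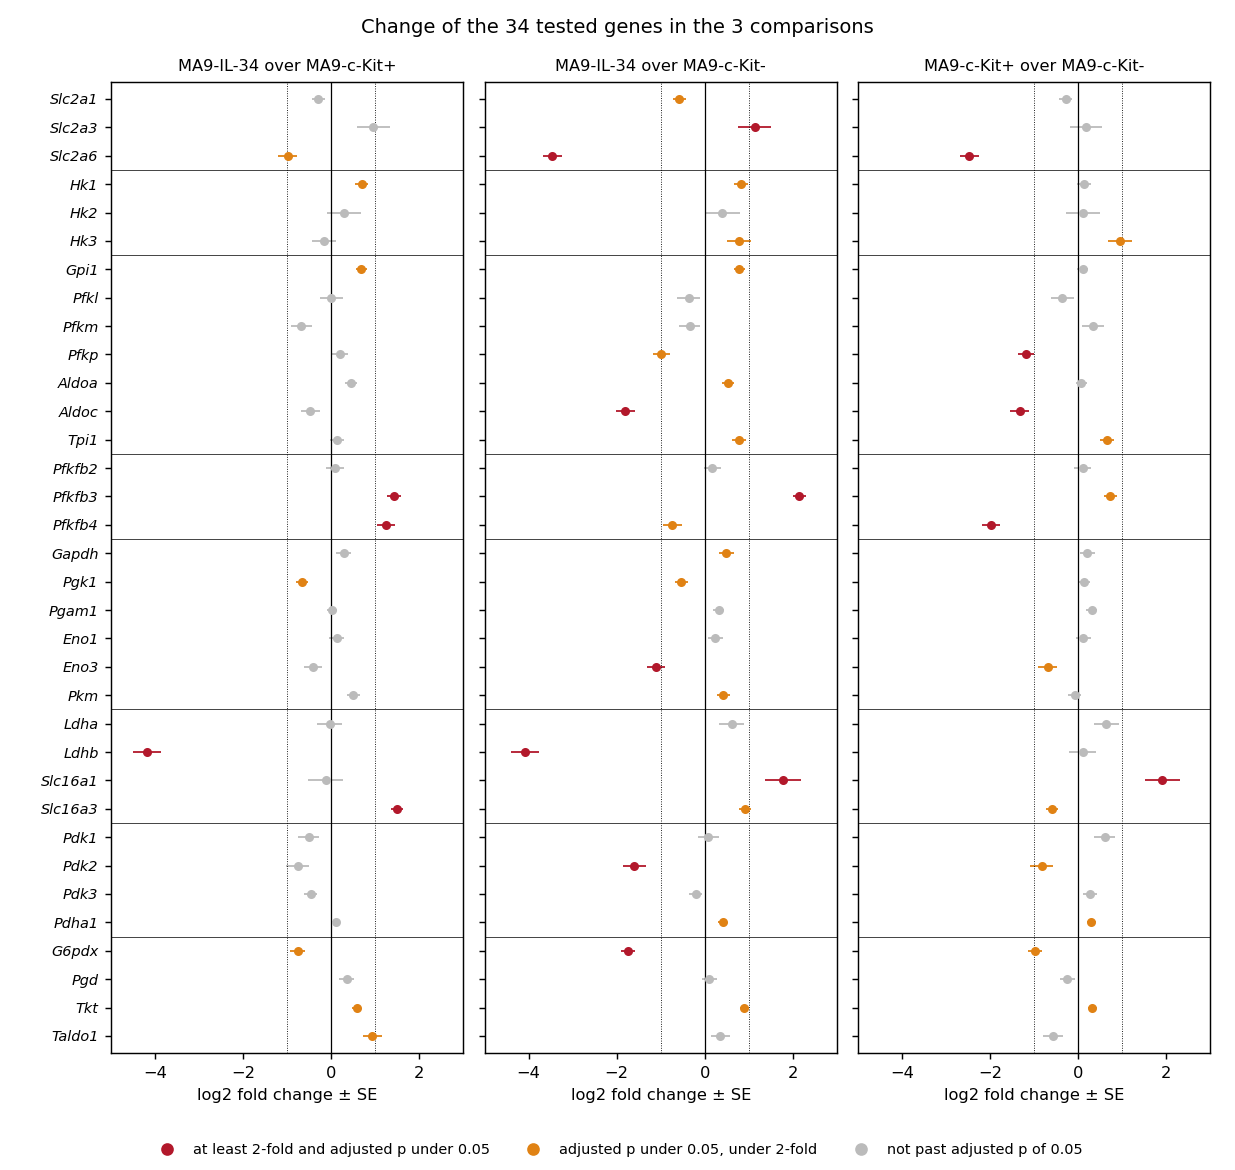
Log2 fold change with its standard error for the 34 tested genes in the 3 comparisons, with dotted lines at a 2-fold change. Red points passed both thresholds, orange points passed the adjusted p only and grey points did not pass it. Ldhb lies at -4.19 and -4.08 in the comparisons with IL-34 cells and at 0.10 in c-Kit+ against c-Kit- cells.

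Promoters of the 4 members that changed between IL-34 and c-Kit+ cells are shown because their calls set IL-34 cells apart from c-Kit+ cells. The sequences are RefSeq windows on GRCm38.p6 that run from 250 bases before to 50 bases after the start of the gene in RefSeq, 300 bases in all, written 5′ to 3′ on the strand of the gene. For Ldhb this start is also the outer end of the GENCODE gene given with its levels. For Slc16a3, Pfkfb3 and Pfkfb4 it is not, and the Slc16a3 window lies inside the GENCODE gene. Capitals mark ACGTG and GCGTG, the cores of the hypoxia response element, on either strand. Pfkfb3 lies at chr2:11553880-11554179, minus strand, Pfkfb4 at chr9:108991652-108991951, plus strand, Slc16a3 at chr11:120948817-120949116, plus strand and Ldhb at chr6:142507908-142508207, minus strand.
Pfkfb3: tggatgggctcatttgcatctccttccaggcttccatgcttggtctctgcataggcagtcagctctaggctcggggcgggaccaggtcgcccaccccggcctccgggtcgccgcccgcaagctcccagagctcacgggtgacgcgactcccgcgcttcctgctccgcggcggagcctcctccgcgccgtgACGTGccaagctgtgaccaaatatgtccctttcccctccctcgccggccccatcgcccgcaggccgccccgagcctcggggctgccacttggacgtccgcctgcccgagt
Pfkfb4: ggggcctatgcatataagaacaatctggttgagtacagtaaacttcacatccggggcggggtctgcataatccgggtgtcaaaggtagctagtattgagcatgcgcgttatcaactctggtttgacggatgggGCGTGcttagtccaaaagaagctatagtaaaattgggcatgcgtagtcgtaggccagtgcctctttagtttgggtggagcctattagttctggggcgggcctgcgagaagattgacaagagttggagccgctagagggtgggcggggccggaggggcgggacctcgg
Slc16a3: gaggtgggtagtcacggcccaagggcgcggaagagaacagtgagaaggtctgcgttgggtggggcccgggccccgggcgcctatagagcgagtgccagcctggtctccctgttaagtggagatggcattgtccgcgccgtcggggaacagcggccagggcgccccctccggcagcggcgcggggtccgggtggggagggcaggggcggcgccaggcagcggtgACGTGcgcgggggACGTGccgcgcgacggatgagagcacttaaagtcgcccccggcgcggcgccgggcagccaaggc
Ldhb: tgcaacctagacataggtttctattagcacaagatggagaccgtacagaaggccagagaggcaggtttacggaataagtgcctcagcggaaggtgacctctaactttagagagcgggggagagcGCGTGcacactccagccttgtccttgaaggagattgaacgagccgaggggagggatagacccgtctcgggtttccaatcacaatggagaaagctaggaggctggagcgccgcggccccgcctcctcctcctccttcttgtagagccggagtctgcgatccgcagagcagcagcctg

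Slc16a3 held 2 such cores, and Pfkfb3, Pfkfb4 and Ldhb held 1 each, so the member that fell had a match as the 3 that rose did. Of the 36 genes, 35 had a promoter in the table and Slc2a3 had none. For genes with several windows, the one nearest to the 5′ end in GENCODE M21 was read. ACGTG or GCGTG occurred in 29 of the 35 (82.9%) and in 43.8% of all 32851 windows. The members' windows were richer in G and C (median 60.7%, against 52.7% for all), and among windows with at least 60% G and C the shares were 95% of 20 members and 69.2% of all. Ldha had the most, with 7. The GC box GGGCGG was found in 22 of the 35 (62.9%, against 35.7% of all windows) and the E-box CACGTG, which contains ACGTG, in 4 (11.4%, against 7.15%). A match describes these letters and does not show a bound site.

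Glucose uptake genes were low in all groups and differed most in Slc2a6. Slc2a1 encodes GLUT1, the common glucose carrier, Slc2a3 encodes GLUT3, a carrier of high affinity, and Slc2a6 encodes GLUT6, a less studied member of the same family. Together they summed to 22.6 ± 2.29 TPM in IL-34 cells, 28.8 ± 1.69 TPM in c-Kit+ cells and 79.3 ± 7.95 TPM in c-Kit- cells. Slc2a6 (GRCm38 chromosome 2, 27021363 to 27027998) was at 5.31, 3.64 and 3.72 TPM in IL-34 cells, 7.35, 12.6 and 8.46 TPM in c-Kit+ cells and 62.6, 58.6 and 47.9 TPM in c-Kit- cells. All c-Kit- libraries were several times above the others, and the IL-34 libraries were the lowest with no overlap. Slc2a6 fell in IL-34 against c-Kit- cells (log2 fold change -3.46 ± 0.22, adjusted p = 4.06e-06) and in c-Kit+ against c-Kit- cells (log2 fold change -2.48 ± 0.22, adjusted p = 7.29e-05). Between IL-34 and c-Kit+ cells its difference ended just short of 2-fold (log2 fold change -0.99 ± 0.22, adjusted p = 0.0165), and it passed without IL-34 replicate 1 (-1.13), c-Kit+ replicate 1 (-1.13) or c-Kit+ replicate 3 (-1.04). Without IL-34 replicate 2 or 3 the threshold was missed (adjusted p = 0.0676 and 0.0734). Slc2a6 supplied 14.9% to 23.9% of the summed TPM of the 3 carriers in IL-34 cells, 27% to 43.9% in c-Kit+ cells and 67.8% to 72.5% in c-Kit- cells.

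Slc2a3 was a low gene at 4.36, 3.7 and 5.01 TPM in IL-34 cells, 1.08, 1.3 and 3.33 TPM in c-Kit+ cells and 0.93, 0.83 and 3.07 TPM in c-Kit- cells. Its IL-34 libraries were all above the rest, and replicate 3 was the highest in both other groups. The rise against c-Kit- cells (log2 fold change 1.13 ± 0.37, adjusted p = 0.0291) was lost without any single IL-34 library, without c-Kit- replicate 1 or 2 (adjusted p = 0.0522 to 0.099 over these 5) and without the filter on low values (adjusted p = 0.0766). Slc2a1 averaged 14 ± 2.03 TPM in IL-34 cells, 17.5 ± 2.26 TPM in c-Kit+ cells and 21.3 ± 1.56 TPM in c-Kit- cells. It was lower by under 2-fold in IL-34 against c-Kit- cells (log2 -0.58, adjusted p = 0.0109).

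Hexokinases trap glucose as glucose 6-phosphate. Hk3, the form typical of myeloid cells, made up most of the hexokinase RNA in every library (60.6% to 84.1% of the 3 genes). No hexokinase passed the 2-fold threshold in any comparison. Hk1, the widely expressed form, was at 112, 101 and 111 TPM in IL-34 cells, 66.8, 61.2 and 72.1 TPM in c-Kit+ cells and 53.2, 53.8 and 77.6 TPM in c-Kit- cells. Its IL-34 libraries lay above all others, and it was higher than in c-Kit+ (log2 fold change 0.69 ± 0.15, adjusted p = 0.0168) and c-Kit- cells (log2 fold change 0.82 ± 0.15, adjusted p = 0.00193). The difference to c-Kit+ cells did not pass without IL-34 replicate 1 or 3 or c-Kit+ replicate 1.

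Hk3 was at 333, 281 and 325 TPM in IL-34 cells, 295, 551 and 262 TPM in c-Kit+ cells and 173, 242 and 143 TPM in c-Kit- cells. c-Kit+ replicate 2, the library with the low mitochondrial share, was far above its group. All IL-34 libraries lay above all c-Kit- libraries (log2 fold change 0.78 ± 0.28, adjusted p = 0.0424). That difference did not pass without any single IL-34 library, c-Kit+ replicate 1 or c-Kit- replicate 1 or 3. Nor did it pass without the filter on low values, with median-of-ratios scaling or with a prior without trend. Hk3 was higher in c-Kit+ than in c-Kit- cells at just under 2-fold (log2 fold change 0.94 ± 0.28, adjusted p = 0.0255), and it passed 2-fold without c-Kit+ replicate 1 or 3 or c-Kit- replicate 2 (log2 1.07, 1.15 and 1.15), but not the adjusted p without c-Kit- replicate 1 or 3 (0.0733 and 0.0759). Hk2, the inducible form, spread widely and overlapped in all groups, at 35.2, 30.3 and 34.2 TPM in IL-34 cells, 30.1, 43.1 and 14.7 TPM in c-Kit+ cells and 36.7, 27.5 and 15.1 TPM in c-Kit- cells. Replicate 3 was the lowest of both c-Kit+ and c-Kit- cells.

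In upper glycolysis, which carries glucose 6-phosphate to triose phosphates, the abundant enzymes Gpi1 (glucose 6-phosphate isomerase), Aldoa (aldolase A) and Tpi1 (triose phosphate isomerase) had their highest means in IL-34 cells, and the sum of the 7 genes was 2916 ± 152 TPM in IL-34 cells, 2092 ± 75.6 TPM in c-Kit+ cells and 1964 ± 25.7 TPM in c-Kit- cells. Gpi1 was at 1266, 1328 and 1335 TPM in IL-34 cells, 921, 679 and 867 TPM in c-Kit+ cells and 831, 715 and 735 TPM in c-Kit- cells. It was higher in IL-34 than in c-Kit+ (log2 fold change 0.68 ± 0.13, adjusted p = 0.00773) and c-Kit- cells (log2 fold change 0.79 ± 0.13, adjusted p = 0.00095), under 2-fold both times. Tpi1, at 339, 339 and 379 TPM in IL-34 cells, 307, 299 and 368 TPM in c-Kit+ cells and 164, 208 and 250.4 TPM in c-Kit- cells, was higher in IL-34 and in c-Kit+ cells than in c-Kit- cells (log2 0.78, adjusted p = 0.00288 for IL-34 cells and log2 0.66, adjusted p = 0.00978 for c-Kit+ cells). Aldoa averaged 1135 ± 132 TPM in IL-34 cells, 827 ± 80 TPM in c-Kit+ cells and 786 ± 94.4 TPM in c-Kit- cells. It differed between IL-34 and c-Kit- cells (log2 0.53, adjusted p = 0.00933) and missed the threshold against c-Kit+ cells (log2 0.45, adjusted p = 0.0557).

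Aldoc and Pfkp were instead highest in c-Kit- cells. Aldoc, which encodes aldolase C (GRCm38 chromosome 11, 78322968 to 78327781), was at 3.79, 2.52 and 2.29 TPM in IL-34 cells, 4.3, 4.28 and 4.33 TPM in c-Kit+ cells and 14, 14.2 and 9.32 TPM in c-Kit- cells. It fell in IL-34 (log2 fold change -1.80 ± 0.21, adjusted p = 0.000155) and in c-Kit+ cells (log2 fold change -1.33 ± 0.21, adjusted p = 0.00155), each against c-Kit- cells. Aldoa exceeded Aldoc by a ratio of 319.8, 389.8 and 528 in IL-34 cells, 173, 211 and 192 in c-Kit+ cells and 50.5, 62.9 and 81.4 in c-Kit- cells, so aldolase C was the minor form throughout. Pfkp, the platelet-type phosphofructokinase, was at 69.6, 54 and 65.4 TPM in IL-34 cells, 49.5, 57.4 and 56.9 TPM in c-Kit+ cells and 138, 91.7 and 155 TPM in c-Kit- cells. Pfkp fell in c-Kit+ against c-Kit- cells (log2 fold change -1.19 ± 0.19, adjusted p = 0.00162) and was lower in IL-34 than in c-Kit- cells by almost 2-fold (log2 fold change -0.99 ± 0.19, adjusted p = 0.00244). The second difference passed 2-fold without IL-34 replicate 1 or 3 or c-Kit- replicate 2 (log2 -1.06, -1.02 and -1.21) and with median-of-ratios scaling (-1.04). Pfkp overlaps exons of Pitrm1 on the other strand, and Pitrm1 averaged 63.3 TPM in IL-34, 52.6 TPM in c-Kit+ and 32.4 TPM in c-Kit- cells.

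The other phosphofructokinases did not pass in the fit of all 9 libraries. Pfkl, the liver-type subunit, averaged 46.9 ± 7.71 TPM in IL-34 cells, 48.9 ± 19.8 TPM in c-Kit+ cells and 60.5 ± 9.86 TPM in c-Kit- cells, and Pfkm, the muscle-type subunit, averaged 6.54 ± 0.522 TPM in IL-34 cells, 11.1 ± 1.59 TPM in c-Kit+ cells and 8.97 ± 3.78 TPM in c-Kit- cells. In IL-34 against c-Kit+ cells Pfkm (log2 -0.68, adjusted p = 0.11) passed with only the 6 libraries compared (adjusted p = 0.0379) and without c-Kit- replicate 3 (adjusted p = 0.0228). In c-Kit+ against c-Kit- cells Pfkm passed without c-Kit- replicate 3 (log2 0.63, adjusted p = 0.0219) and Pfkl without c-Kit+ replicate 2 (log2 -0.66, adjusted p = 0.0273). Pfkm overlaps exons of Senp1 on the other strand, which averaged 40.2 TPM over the 9 libraries against 8.88 TPM for Pfkm. Because use of strand in the counting is not given in the sources used here, the level of Pfkm is uncertain.

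Pfkfb3 and Pfkfb4, of fructose 2,6-bisphosphate turnover, differed between all 3 groups. This sugar phosphate is the strongest activator of phosphofructokinase. Pfkfb3 mostly makes it, Pfkfb4 can make or remove it, and Pfkfb2 is another form of the enzyme. Pfkfb3 (GRCm38 chromosome 2, 11471433 to 11554077) was at 65.8, 67.8 and 69 TPM in IL-34 cells, 28, 27.7 and 19.1 TPM in c-Kit+ cells and 14.9, 13.9 and 14.5 TPM in c-Kit- cells. The 3 groups did not overlap, with IL-34 cells the highest and c-Kit- cells the lowest. Pfkfb3 rose in IL-34 against c-Kit+ cells (log2 fold change 1.42 ± 0.15, adjusted p = 0.000364) and against c-Kit- cells (log2 fold change 2.15 ± 0.15, adjusted p = 7.34e-06). Between c-Kit+ and c-Kit- cells it was higher by under 2-fold (log2 fold change 0.73 ± 0.15, adjusted p = 0.00512).

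Pfkfb4 (GRCm38 chromosome 9, 108991778 to 109032228) followed another order, at 10.9, 13.9 and 14.8 TPM in IL-34 cells, 5.2, 5.03 and 4.69 TPM in c-Kit+ cells and 30.8, 20.6 and 17.8 TPM in c-Kit- cells. c-Kit+ libraries were the lowest and nearly equal, IL-34 libraries lay between, and c-Kit- libraries were the highest, with no overlap. Pfkfb4 rose in IL-34 against c-Kit+ cells (log2 fold change 1.24 ± 0.21, adjusted p = 0.00453) and fell in c-Kit+ against c-Kit- cells (log2 fold change -1.98 ± 0.21, adjusted p = 0.000199). Against c-Kit- cells it was lower in IL-34 cells by under 2-fold (log2 fold change -0.73 ± 0.21, adjusted p = 0.0162), which did not pass without IL-34 replicate 1 (adjusted p = 0.0665). The ratio of Pfkfb3 to Pfkfb4 was 6.03, 4.87 and 4.66 in IL-34 cells, 5.39, 5.5 and 4.07 in c-Kit+ cells and 0.483, 0.675 and 0.812 in c-Kit- cells, so Pfkfb3 was the main form in IL-34 and c-Kit+ cells and Pfkfb4 in c-Kit- cells.

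Pfkfb2 was at 6.99, 6.47 and 6.68 TPM in IL-34 cells, 6.49, 8.02 and 4.78 TPM in c-Kit+ cells and 6.67, 4.62 and 6.39 TPM in c-Kit- cells, with overlap in all comparisons. Its exons overlap those of Gm29427 on the same strand and Yod1 on the other, which averaged 7.56 and 5.73 TPM against 6.35 TPM for Pfkfb2, and its level is uncertain for that reason. The 3 genes of this step summed to 87.5 ± 3.48 TPM in IL-34 cells, 36.3 ± 6.74 TPM in c-Kit+ cells and 43.4 ± 7.75 TPM in c-Kit- cells.

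Lower glycolysis, from Gapdh to pyruvate kinase, held the most abundant members. The 7 genes summed to 8736 ± 211 TPM in IL-34 cells, 8177 ± 1265 TPM in c-Kit+ cells and 7297 ± 896 TPM in c-Kit- cells. Gapdh (glyceraldehyde 3-phosphate dehydrogenase) was at 4963, 4955 and 5375 TPM in IL-34 cells, 4037, 3493 and 5219 TPM in c-Kit+ cells and 3029.96, 3804 and 4119.8 TPM in c-Kit- cells. It was higher in IL-34 than in c-Kit- cells by a small margin (log2 fold change 0.49 ± 0.17, adjusted p = 0.041), which did not pass without any one of 6 libraries (each of IL-34 cells, c-Kit+ replicate 1 and c-Kit- replicates 1 and 2). Nor did it pass without the filter on low values, without the mitochondrially encoded genes, with median-of-ratios scaling or with quantile normalization. The M1 and M2 forms of pyruvate kinase both come from Pkm, which was at 1259, 1175 and 1251 TPM in IL-34 cells, 816, 753 and 1067 TPM in c-Kit+ cells and 819.7, 885 and 1065 TPM in c-Kit- cells. It was above both other groups in every IL-34 library, with a log2 fold change of 0.50 against c-Kit+ cells (adjusted p = 0.0605) and 0.42 against c-Kit- cells (adjusted p = 0.0417). The second value did not pass without any one of the same 6 libraries, and the first passed without c-Kit+ replicate 3 (log2 0.65, adjusted p = 0.0167) or c-Kit- replicate 3. The second was also lost with the same change of filter and the same scalings as for Gapdh, and with a prior without trend.

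Pgk1, phosphoglycerate kinase and the first step of glycolysis to yield ATP, was lowest in IL-34 cells. It was at 1125, 1276 and 1043 TPM in IL-34 cells, 1906, 1599 and 1979 TPM in c-Kit+ cells and 1656, 1448 and 1880.05 TPM in c-Kit- cells. All IL-34 libraries were below all others, and Pgk1 was lower than in c-Kit+ (log2 fold change -0.67 ± 0.14, adjusted p = 0.0126) and c-Kit- cells (log2 fold change -0.53 ± 0.14, adjusted p = 0.0112), under 2-fold in both. The first of these did not pass without IL-34 replicate 1 or 3, and the second without replicate 3. Pgk1 took 11.6% to 14.8% of the summed lower glycolysis TPM in IL-34 cells, against 20.7% to 24.2% in c-Kit+ and 20% to 25.7% in c-Kit- cells.

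Enolase RNA was almost all Eno1, at 620.5, 598 and 656 TPM in IL-34 cells, 484, 526 and 739 TPM in c-Kit+ cells and 451, 512 and 637 TPM in c-Kit- cells, with overlapping groups and no call. Eno3, the muscle-type enolase, was at 11.3, 7.78 and 8.72 TPM in IL-34 cells, 12, 12.5 and 13.1 TPM in c-Kit+ cells and 21.1, 15.6 and 27.7 TPM in c-Kit- cells. It fell in IL-34 against c-Kit- cells (log2 fold change -1.11 ± 0.21, adjusted p = 0.00234), and without c-Kit- replicate 3, the library with erythroid RNA, the difference was under 2-fold (log2 -0.91, adjusted p = 0.00605). Eno2, the neuronal form, was at 0.1, 0.08 and 0 TPM in IL-34 cells, 0.4, 0.36 and 0.52 TPM in c-Kit+ cells and 0.17, 0.28 and 0.74 TPM in c-Kit- cells and was not tested. Pgam1 (phosphoglycerate mutase) averaged 628 ± 15.4 TPM in IL-34 cells, 625 ± 77 TPM in c-Kit+ cells and 506 ± 61.3 TPM in c-Kit- cells and did not pass in the fit of all 9 libraries. It was closest in IL-34 against c-Kit- cells (log2 0.32, limma adjusted p = 0.0568), where it passed in 6 alternatives: without c-Kit+ replicate 2 or 3 or c-Kit- replicate 2, with only the 6 libraries compared, without the mitochondrially encoded genes and with quantile normalization (adjusted p between 0.0305 and 0.0427). In c-Kit+ against c-Kit- cells it passed with quantile normalization and without c-Kit+ replicate 3 or c-Kit- replicate 2 (adjusted p between 0.0256 and 0.0448).

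The lactate genes held the largest change of the set. Ldha and Ldhb encode the subunits of lactate dehydrogenase. The A subunit favours lactate, and the B subunit favours its oxidation to pyruvate. Ldhb (GRCm38 chromosome 6, 142490249 to 142507957) was at 1.41, 2.44 and 2.99 TPM in IL-34 cells, 74.3, 67.3 and 37.8 TPM in c-Kit+ cells and 58.7, 67.7 and 38.1 TPM in c-Kit- cells. Every IL-34 library was more than 10-fold below every other library, and the other groups overlapped. Ldhb fell in IL-34 against c-Kit+ cells (log2 fold change -4.19 ± 0.31, adjusted p = 4.3e-05) and against c-Kit- cells (log2 fold change -4.08 ± 0.31, adjusted p = 1.2e-05). It did not pass in c-Kit+ against c-Kit- cells (log2 0.10, adjusted p = 0.817). Replicate 3 had the lowest Ldhb of both those groups, at 37.8 and 38.1 TPM.

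Ldha, by contrast, did not pass in the fit of all 9 libraries, at 524, 512 and 533 TPM in IL-34 cells, 509, 395 and 764 TPM in c-Kit+ cells and 265, 293 and 518 TPM in c-Kit- cells. The IL-34 libraries agreed closely, and they lay inside the range of c-Kit+ cells (log2 fold change -0.03 ± 0.28, adjusted p = 0.963). c-Kit- cells had lower values in replicates 1 and 2 only (log2 fold change 0.61 ± 0.28, adjusted p = 0.101 for IL-34 cells). In c-Kit+ against c-Kit- cells Ldha was higher within each replicate number. Its log2 fold change of 0.64 had an adjusted p of 0.102 without a block and 0.0219 with the replicate number as a block over these 6 libraries. The labels give no such pairing, and the block was taken up from correlations in these same data. Without c-Kit- replicate 3 both comparisons with c-Kit- cells passed (log2 0.91 for IL-34 and 0.94 for c-Kit+ cells), and without c-Kit+ replicate 2 that of c-Kit+ cells did (log2 0.86). The ratio of Ldha to Ldhb was 372, 209.8 and 178 in IL-34 cells, 6.84, 5.87 and 20.2 in c-Kit+ cells and 4.52, 4.33 and 13.6 in c-Kit- cells.

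**Figure D3:**
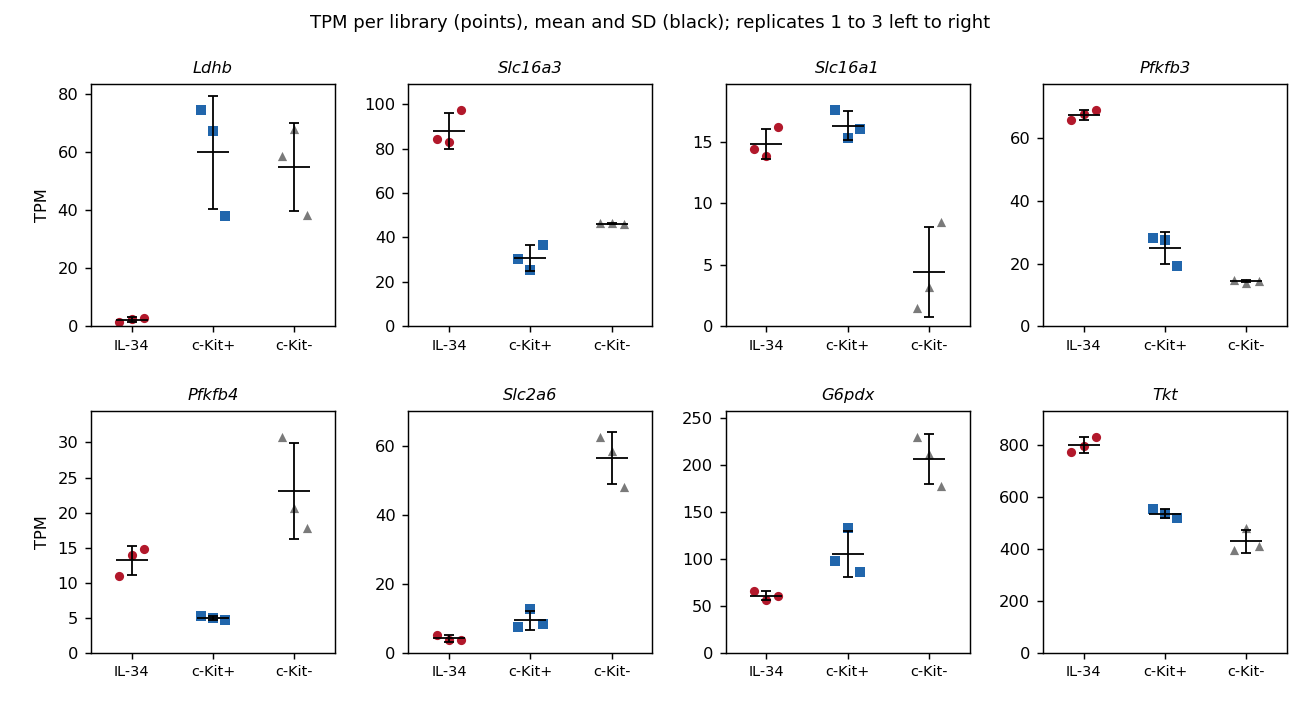
TPM of 8 members in each library (points, replicates 1 to 3 from left to right) with the mean and SD of 3 libraries in black, for IL-34, c-Kit+ and c-Kit- cells; axes start at 0. Ldhb is near 0 in IL-34 cells only, Slc16a3 and Pfkfb3 are highest there, and Slc2a6 and G6pdx are highest in c-Kit- cells.

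Lactate carriers changed in different ways. Slc16a3 encodes MCT4, which mainly exports lactate from cells with active glycolysis (GRCm38 chromosome 11, 120948480 to 120960868). It was at 84.2, 82.8 and 97.4 TPM in IL-34 cells, 30.3, 25.3 and 36.6 TPM in c-Kit+ cells and 46.4, 46.5 and 45.9 TPM in c-Kit- cells. No group overlapped another, with IL-34 cells the highest and c-Kit+ cells the lowest. Slc16a3 rose in IL-34 against c-Kit+ cells (log2 fold change 1.50 ± 0.14, adjusted p = 0.000161) and was higher than in c-Kit- cells by just under 2-fold (log2 fold change 0.91 ± 0.14, adjusted p = 0.000648). c-Kit+ cells were below c-Kit- cells (log2 fold change -0.59 ± 0.14, adjusted p = 0.00941).

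Slc16a1 encodes MCT1, which carries lactate in either direction (GRCm38 chromosome 3, 104638668 to 104658462). It was at 14.4, 13.9 and 16.2 TPM in IL-34 cells, 17.6, 15.3 and 16.1 TPM in c-Kit+ cells and 1.45, 3.21 and 8.51 TPM in c-Kit- cells. IL-34 and c-Kit+ cells overlapped, and both stood above c-Kit- cells, where replicate 3 was the highest. Slc16a1 rose in IL-34 (log2 fold change 1.78 ± 0.40, adjusted p = 0.00548) and in c-Kit+ cells (log2 fold change 1.91 ± 0.40, adjusted p = 0.00569), each against c-Kit- cells, and without c-Kit- replicate 3 the second value was 2.43. Between IL-34 and c-Kit+ cells the value was -0.13 (standard error 0.40, adjusted p = 0.883). The ratio of Slc16a3 to Slc16a1 was 5.83, 5.97 and 6 in IL-34 cells, 1.72, 1.65 and 2.28 in c-Kit+ cells and 32, 14.5 and 5.39 in c-Kit- cells.

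The pyruvate dehydrogenase gate decides whether pyruvate enters the mitochondrial cycle, and the Pdk kinases close it. Pdha1, the catalytic alpha subunit, averaged 94.8 ± 3.35 TPM in IL-34 cells, 88 ± 4.6 TPM in c-Kit+ cells and 71.7 ± 6.96 TPM in c-Kit- cells. It was a little higher in IL-34 (log2 0.40, adjusted p = 0.00881) and in c-Kit+ cells (log2 0.30, adjusted p = 0.0429) than in c-Kit- cells. The second of these had an adjusted p of 0.079 with the replicate block over the 6 libraries, and it was lost without any one of 7 libraries (all but c-Kit+ replicate 2 and c-Kit- replicate 3). Map3k15, which overlaps Pdha1 on the other strand, averaged 13.8, 5.56 and 12.1 TPM in IL-34, c-Kit+ and c-Kit- cells. Pdk2 (GRCm38 chromosome 11, 95026258 to 95041354) was at 3.21, 4.46 and 5.36 TPM in IL-34 cells, 10.4, 5.5 and 8.72 TPM in c-Kit+ cells and 18.1, 11.9 and 15.5 TPM in c-Kit- cells. It fell in IL-34 against c-Kit- cells (log2 fold change -1.60 ± 0.26, adjusted p = 0.000912), and c-Kit+ cells lay between, lower than c-Kit- cells by under 2-fold (log2 -0.83, adjusted p = 0.0305), which did not pass without c-Kit+ replicate 2 or c-Kit- replicate 1 or 3. In IL-34 against c-Kit+ cells Pdk2 (log2 -0.77, adjusted p = 0.0893) passed without c-Kit+ replicate 2 (log2 -0.997, adjusted p = 0.0243).

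Pdk1, a kinase known to be induced in hypoxia, and Pdk3 did not pass in the fit of all 9 libraries. Pdk1 was at 20.1, 23.3 and 22.4 TPM in IL-34 cells, 33, 21.9 and 43.9 TPM in c-Kit+ cells and 22.8, 16.3 and 23.5 TPM in c-Kit- cells, with replicate 3 the highest of both c-Kit+ and c-Kit- cells. It was higher in c-Kit+ than in c-Kit- cells with an adjusted p of 0.036 with the replicate block over these 6 libraries (log2 0.60, adjusted p = 0.0773 without it). Without c-Kit+ replicate 2 this difference of Pdk1 passed (log2 0.86, adjusted p = 0.00928). So did a lower level of Pdk1 in IL-34 than in c-Kit+ cells (log2 -0.77, adjusted p = 0.0297). Pdk3 was at 19.6, 18.1 and 19.3 TPM in IL-34 cells, 27.2, 30.2 and 23.2 TPM in c-Kit+ cells and 25.1, 18.2 and 23.4 TPM in c-Kit- cells, and its IL-34 libraries were below those of c-Kit+ cells (log2 fold change -0.47 ± 0.15, adjusted p = 0.0785). With median-of-ratios scaling or quantile normalization that difference passed (lowest adjusted p = 0.0256). Pdk4 had at most 0.02 TPM in each library.

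G6pdx and Tkt, of the pentose phosphate pathway, differed in opposite directions. G6pdx encodes glucose 6-phosphate dehydrogenase, the entry enzyme of the oxidative arm (GRCm38 chromosome X, 74409483 to 74429194). It was at 65.5, 55.9 and 60.5 TPM in IL-34 cells, 97.2, 133 and 85.7 TPM in c-Kit+ cells and 229.7, 211 and 178 TPM in c-Kit- cells. The groups did not overlap, and the order was IL-34, c-Kit+, c-Kit-, low to high. G6pdx fell in IL-34 against c-Kit- cells (log2 fold change -1.74 ± 0.17, adjusted p = 4.82e-05). It was lower by under 2-fold in IL-34 against c-Kit+ cells (log2 fold change -0.76 ± 0.17, adjusted p = 0.0165) and in c-Kit+ against c-Kit- cells (log2 fold change -0.98 ± 0.17, adjusted p = 0.0022). The last passed 2-fold without c-Kit+ replicate 2 (log2 -1.16) or c-Kit- replicate 3 (-1.08) and with median-of-ratios scaling (-1.01). The one before it did not pass without IL-34 replicate 2 or 3. Ikbkg, which overlaps G6pdx on the other strand, averaged 25.7, 25.6 and 30.6 TPM in IL-34, c-Kit+ and c-Kit- cells.

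Pgd, the following oxidative enzyme, averaged 479 ± 26.7 TPM in IL-34 cells, 384 ± 101 TPM in c-Kit+ cells and 448 ± 33.9 TPM in c-Kit- cells and did not pass in the fit of all 9 libraries. Without c-Kit+ replicate 2 it passed in IL-34 against c-Kit+ cells (log2 0.55, limma adjusted p = 0.0165) and in c-Kit+ against c-Kit- cells (log2 -0.45, adjusted p = 0.0174). Tkt encodes transketolase of the non-oxidative arm (GRCm38 chromosome 14, 30548359 to 30574720). It was at 771, 796 and 831 TPM in IL-34 cells, 554, 535 and 518 TPM in c-Kit+ cells and 396, 479 and 411 TPM in c-Kit- cells, with no overlap and the reverse order of G6pdx. Tkt was higher in IL-34 than in c-Kit+ (log2 fold change 0.58 ± 0.10, adjusted p = 0.00466) and c-Kit- cells (log2 fold change 0.90 ± 0.10, adjusted p = 9.88e-05), and in c-Kit+ than in c-Kit- cells (log2 fold change 0.32 ± 0.10, adjusted p = 0.0275), each under 2-fold. The last had an adjusted p of 0.0776 with the replicate block over the 6 libraries, and it did not pass without c-Kit+ replicate 1 or c-Kit- replicate 1 or 3. Tkt over G6pdx was 11.8, 14.3 and 13.7 in IL-34 cells, 5.69, 4.03 and 6.04 in c-Kit+ cells and 1.72, 2.27 and 2.31 in c-Kit- cells.

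Taldo1 encodes transaldolase of the same arm and was at 613, 564 and 578 TPM in IL-34 cells, 277, 462 and 227 TPM in c-Kit+ cells and 440.4, 482 and 451 TPM in c-Kit- cells. IL-34 libraries were above all others, and c-Kit+ replicate 2 stood apart from its group. The difference between IL-34 and c-Kit+ cells was under 2-fold (log2 fold change 0.93 ± 0.22, adjusted p = 0.0228). It reached a log2 value of 1.22 without c-Kit+ replicate 2 and did not pass without any one of the other 5 libraries compared. The pathway's 4 genes summed to 1925 ± 53.3 TPM in IL-34 cells, 1347 ± 254 TPM in c-Kit+ cells and 1541 ± 81.6 TPM in c-Kit- cells.

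**Figure D4:**
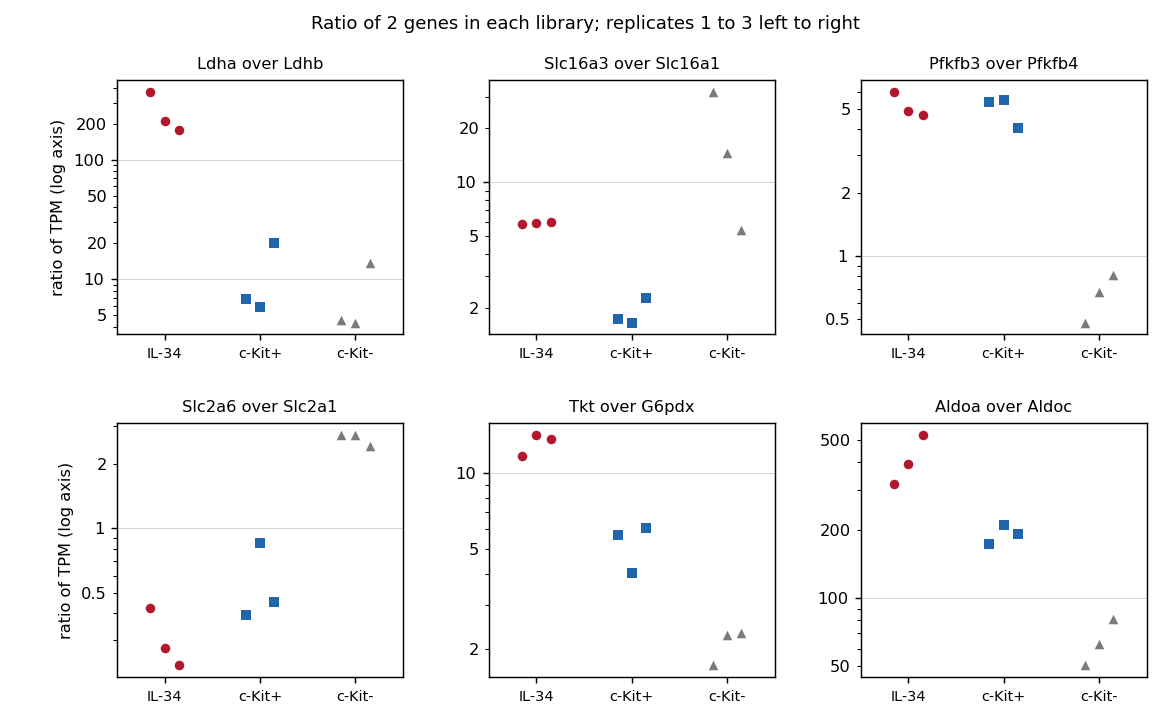
Ratio of TPM between gene pairs of related steps in each library on a log axis, for IL-34, c-Kit+ and c-Kit- cells, replicates 1 to 3 from left to right. Ldha over Ldhb was 178 to 372 in IL-34 cells and at most 20.2 in the other 6 libraries, and Tkt over G6pdx fell in 3 separate ranges.

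Members varied less among IL-34 libraries than in the other groups. The median coefficient of variation over the 34 tested members was 7.84% in IL-34, 18.6% in c-Kit+ and 17% in c-Kit- cells, and over all tested genes it was 10.2%, 20.7% and 18.3% in the same order. Replicate 3 was at an extreme of both c-Kit+ and c-Kit- cells in many members. In 12 of the 34 members (35.3%) replicate 3 was the highest library of both groups, against 18.4% of all tested genes. They were Slc2a3, Hk1, Pfkm, Tpi1, Gapdh, Pgk1, Eno1, Eno3, Pkm, Ldha, Pdk1 and Pdha1, most of them enzymes from triose phosphate to lactate. Replicate 3 was the lowest of both groups in 6 members (17.6%, against 23.7% of all): Hk2, Hk3, Pfkfb4, Ldhb, G6pdx and Pgd. Erythroid markers summed to 58.3, 35.2 and 85.5 TPM in the c-Kit+ libraries and to 62.0, 25.8 and 2543 TPM in the c-Kit- libraries. Monocyte and macrophage markers summed to 3693, 5275 and 2247 TPM in the c-Kit+ libraries and 13390.2, 18002 and 9333 TPM in the c-Kit- libraries, and dissociation stress genes to 2283, 1574 and 960.07 TPM in the c-Kit+ libraries and 3703, 2421 and 1250.01 TPM in the c-Kit- libraries. The part of these differences in the pattern was not tested.

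**Figure D5:**
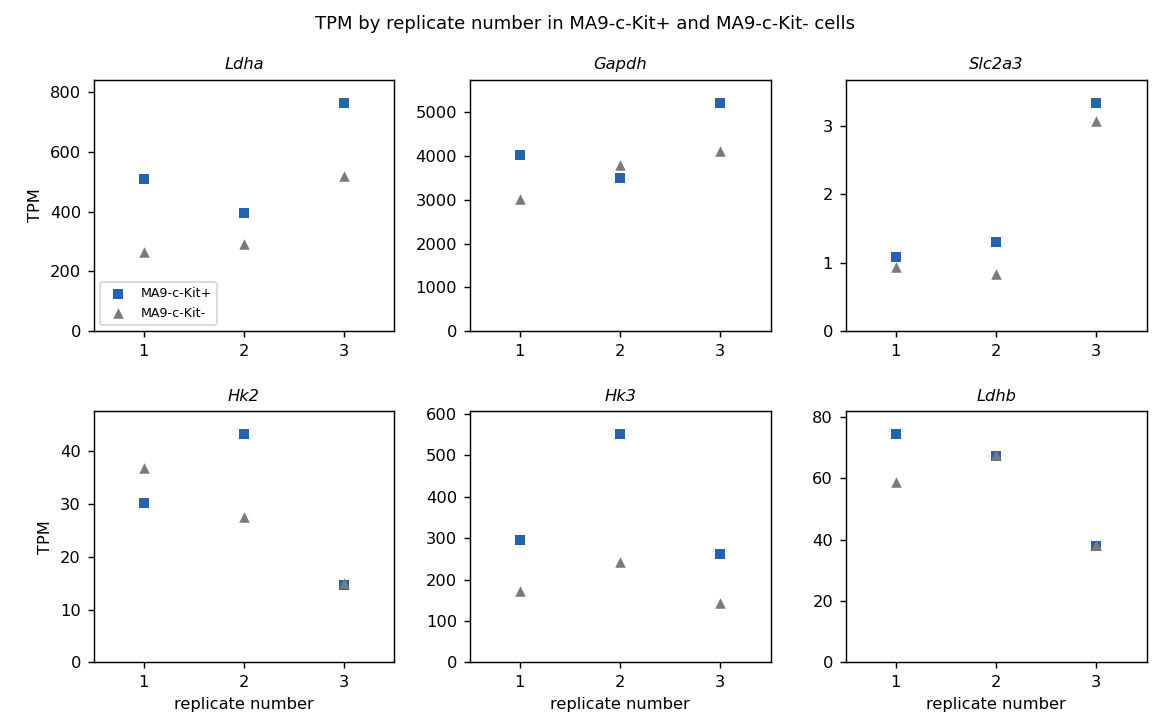
TPM of 6 members by replicate number in c-Kit+ (squares) and c-Kit- cells (triangles); axes start at 0. Ldha, Gapdh and Slc2a3 were highest in replicate 3 of both groups, and Hk2, Hk3 and Ldhb were lowest there.

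Cell type markers differed between the groups and stand beside these results. Of all tested genes, 3.86% rose and 3.38% fell in IL-34 against c-Kit+ cells. Against c-Kit- cells 11.3% rose and 12.7% fell in IL-34 cells, and 5.66% rose and 9.15% fell in c-Kit+ cells. For eosinophils, basophils and mast cells the list held 12 genes, of which 6 were tested, and 3 of these (Hdc, Siglecf and Cpa3) rose in IL-34 against c-Kit+ cells. The other tested genes, Prg2, Mcpt8 and Ms4a2, did not pass there. Prg2 was at 12.63, 6.33 and 7.51 TPM in IL-34 and 1.27, 5.82 and 0.17 TPM in c-Kit+ cells. Mcpt8 overlapped, at 24.51, 37.65 and 25.25 TPM in IL-34 and 61.56, 19.02 and 43.7 TPM in c-Kit+ cells. So did Ms4a2, at 1.47, 2.27 and 2.33 TPM in IL-34 and 2.36, 2.64 and 1.2 TPM in c-Kit+ cells. The list summed to 352 to 485 TPM in IL-34, 51.2 to 79.9 TPM in c-Kit+ and 21.02 to 40.6 TPM in c-Kit- cells, and Fcer1a, Tpsb2 and Cma1 were listed at 0 in every library. Of 14 tested monocyte and macrophage genes, 3 fell in IL-34 against c-Kit+ cells, 9 fell and 2 rose against c-Kit- cells, and 8 fell and 2 rose in c-Kit+ against c-Kit- cells. Their sums were 2052 to 2239 TPM, 2247 to 5275 TPM and 9333 to 18002 TPM in the same order of groups. Of 10 tested neutrophil genes, none passed in IL-34 against c-Kit+ cells, 2 rose and 2 fell in IL-34 against c-Kit- cells, and 1 rose and 3 fell in c-Kit+ against c-Kit- cells, with sums of 294 to 434 TPM in IL-34, 131 to 329 TPM in c-Kit+ and 696 to 881 TPM in c-Kit- cells. Of 13 dissociation stress genes, 1 fell in IL-34 against c-Kit+ cells, 1 rose and 6 fell in IL-34 against c-Kit- cells, and 1 rose and 3 fell in c-Kit+ against c-Kit- cells, with sums of 911.02 to 1268 TPM in IL-34, 960.07 to 2283 TPM in c-Kit+ and 1250.01 to 3703 TPM in c-Kit- cells. Of 15 S phase genes, 10 rose in IL-34 and 5 in c-Kit+ cells, each against c-Kit- cells, and between IL-34 and c-Kit+ cells none passed either rule. In bulk RNA, fewer cells of a type and less RNA per cell cannot be told apart, and the part of these cell types, of stress genes and of cycling in the results on members was not tested.

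Genes that work next to the members were read from lists by pathway. The carriers' chaperones differed: Emb (embigin), a partner of monocarboxylate carriers, averaged 90.6 ± 11.1 TPM in IL-34 cells, 248 ± 61.1 TPM in c-Kit+ cells and 564 ± 20.4 TPM in c-Kit- cells. It fell in IL-34 against c-Kit+ cells (log2 fold change -1.42, adjusted p = 0.000594) and in c-Kit+ against c-Kit- cells (log2 fold change -1.21, adjusted p = 0.000725). Bsg (basigin), the partner of both MCT1 and MCT4, averaged 342 ± 14.2 TPM in IL-34 cells, 248 ± 39.4 TPM in c-Kit+ cells and 169 ± 32 TPM in c-Kit- cells and rose in IL-34 against c-Kit- cells (log2 fold change 1.03, adjusted p = 0.000646). Of the 6 tested genes in this list of carriers and chaperones, none rose and 2 fell in IL-34 against c-Kit+ cells, 1 rose and 3 fell against c-Kit- cells, and 2 fell in c-Kit+ against c-Kit- cells. Over all tested genes the shares that rose and fell were 3.86% and 3.38%, 11.3% and 12.7%, and 5.66% and 9.15% in that order. The other called genes of the list were Slc2a5, which fell in IL-34 cells against both other groups, Slc2a8, which fell in IL-34 against c-Kit- cells, and Slc2a9, which fell in c-Kit+ against c-Kit- cells.

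Serine synthesis draws 3-phosphoglycerate from glycolysis. The list held 6 genes of this route and of the later use of serine, the latter with Shmt1 and Shmt2. Against c-Kit- cells, 3 rose in IL-34 cells (Psat1, Shmt1 and Shmt2), where 11.3% of all tested genes rose. In c-Kit+ cells 4 rose (the same genes and Phgdh), where 5.66% of all tested genes rose. Phgdh, the first enzyme of serine synthesis, averaged 15.1 ± 2.78 TPM in IL-34 cells, 74 ± 13.6 TPM in c-Kit+ cells and 9.17 ± 4.22 TPM in c-Kit- cells. It rose in c-Kit+ against c-Kit- cells (log2 fold change 2.97, adjusted p = 0.000237) and fell in IL-34 against c-Kit+ cells (log2 fold change -2.22, adjusted p = 0.00217), the 1 call of the list there. Psat1 averaged 90.1 ± 7.5 TPM in IL-34 cells, 78.7 ± 10.6 TPM in c-Kit+ cells and 32.7 ± 9.08 TPM in c-Kit- cells and Shmt1 38.3 ± 2.98 TPM in IL-34 cells, 38.9 ± 4.31 TPM in c-Kit+ cells and 11.7 ± 2.04 TPM in c-Kit- cells, and both rose in IL-34 and in c-Kit+ cells, each against c-Kit- cells.

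Gluconeogenesis, glycogen and the tricarboxylic acid cycle were also measured. Fbp1, which reverses the phosphofructokinase step, averaged 25.6 ± 6.33 TPM in IL-34 cells, 84.9 ± 31.9 TPM in c-Kit+ cells and 19.4 ± 7.63 TPM in c-Kit- cells. It fell in IL-34 against c-Kit+ cells (log2 fold change -1.63, adjusted p = 0.0196) and rose in c-Kit+ against c-Kit- cells (log2 fold change 2.07, adjusted p = 0.00275). G6pc3, a glucose 6-phosphatase found outside the liver, rose in IL-34 and in c-Kit+ cells, each against c-Kit- cells (log2 fold change 2.12, adjusted p = 7.81e-05 in IL-34 and log2 fold change 1.16, adjusted p = 0.00375 in c-Kit+ cells). Among 11 glycogen genes, Gbe1 (the branching enzyme) rose in IL-34 against c-Kit+ cells (log2 fold change 1.37, adjusted p = 0.0015), with 54.6 ± 3.37 TPM in IL-34 cells, 20.7 ± 3.9 TPM in c-Kit+ cells and 17.7 ± 4.26 TPM in c-Kit- cells. Gbe1 and Gys1 (glycogen synthase) rose against c-Kit- cells, and Pygl (glycogen phosphorylase) fell in c-Kit+ against c-Kit- cells (log2 fold change -1.26, adjusted p = 0.000686). Of 20 genes of the tricarboxylic acid cycle none passed the call rule between IL-34 and c-Kit+ cells, and 1 passed the adjusted p alone. By the adjusted p alone 7.43% of all tested genes were higher there and 5.49% lower. Against c-Kit- cells 2 rose in IL-34 cells (Idh2 and Suclg2) and 3 rose in c-Kit+ cells (Idh2, Suclg2 and Idh3a). Of all tested genes 11.3% rose in IL-34 cells there and 5.66% in c-Kit+ cells. None of 10 other pyruvate dehydrogenase and pyruvate carrier genes and none of 5 tested hexosamine pathway genes passed the call rule in any comparison. By the adjusted p alone, 3 and 1 of them passed in IL-34 against c-Kit- cells, and of the hexosamine genes 1 passed between c-Kit+ and c-Kit- cells. By that rule 26.6% of all tested genes were higher and 23.4% lower in the first comparison, and 19.3% and 19% in the second.

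Among 8 tested other pentose phosphate genes, Rpia (ribose 5-phosphate isomerase) rose in IL-34 against c-Kit- cells (log2 fold change 1.36, adjusted p = 0.000367), at 74.5 ± 4.48 TPM in IL-34 cells, 54.1 ± 14.7 TPM in c-Kit+ cells and 28.5 ± 3.23 TPM in c-Kit- cells. Of 9 tested isoenzymes and side steps of glycolysis, Adpgk, an ADP-dependent glucokinase, and Tigar, which removes fructose 2,6-bisphosphate, rose in IL-34 against c-Kit- cells (log2 fold change 1.33, adjusted p = 0.00014 for Adpgk and log2 fold change 1.09, adjusted p = 0.000192 for Tigar). Pgam2, the muscle-type phosphoglycerate mutase, fell against c-Kit- cells in both other groups (log2 fold change -2.11, adjusted p = 0.000103 in IL-34 and log2 fold change -1.95, adjusted p = 0.000356 in c-Kit+ cells).

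Of 14 tested regulators of glycolytic genes, none passed the call rule between IL-34 and c-Kit+ cells, and 2 passed the adjusted p alone. By the adjusted p alone 7.43% of all tested genes were higher there and 5.49% lower. Against c-Kit- cells 3 rose and 4 fell in IL-34 cells, and 3 rose and 2 fell in c-Kit+ cells. Of all tested genes 11.3% rose and 12.7% fell in IL-34 cells there, and 5.66% rose and 9.15% fell in c-Kit+ cells. Myc averaged 174 ± 37.4 TPM in IL-34 cells, 195 ± 100.3 TPM in c-Kit+ cells and 30.7 ± 2.79 TPM in c-Kit- cells and rose in c-Kit+ against c-Kit- cells (log2 fold change 2.46, adjusted p = 0.00136). Txnip, which restrains glucose uptake, averaged 66.3 ± 17.5 TPM in IL-34 cells, 84.1 ± 11.8 TPM in c-Kit+ cells and 256 ± 85.2 TPM in c-Kit- cells and fell in IL-34 (log2 fold change -1.91, adjusted p = 0.000491) and c-Kit+ cells (log2 fold change -1.54, adjusted p = 0.00263) against c-Kit- cells.

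Hypoxia-induced genes outside glycolysis did not move one way. Of 17 tested, 1 rose and 1 fell in IL-34 against c-Kit+ cells, 5 rose and 3 fell against c-Kit- cells, and 4 rose and 3 fell in c-Kit+ against c-Kit- cells. Over all tested genes the shares that rose and fell were 3.86% and 3.38%, 11.3% and 12.7%, and 5.66% and 9.15% in that order. Vegfa, an angiogenic growth factor, averaged 91.9 ± 7.29 TPM in IL-34 cells, 39 ± 14.4 TPM in c-Kit+ cells and 3.11 ± 1.27 TPM in c-Kit- cells. It rose in IL-34 against c-Kit+ cells (log2 fold change 1.27, adjusted p = 0.0184) and in c-Kit+ against c-Kit- cells (log2 fold change 3.28, adjusted p = 7.29e-05). Ndrg1 went the other way, at 12.8 ± 0.578 TPM in IL-34 cells, 32.4 ± 13.7 TPM in c-Kit+ cells and 89.7 ± 24.9 TPM in c-Kit- cells, and fell in IL-34 against c-Kit+ cells (log2 fold change -1.20, adjusted p = 0.0225). Egln3, an oxygen-sensing prolyl hydroxylase that is also in the list of regulators, rose against c-Kit- cells in both other groups (log2 fold change 2.51, adjusted p = 0.000115 in IL-34 and log2 fold change 2.46, adjusted p = 0.000282 in c-Kit+ cells). Bnip3l fell in c-Kit+ against c-Kit- cells (log2 fold change -1.52, adjusted p = 0.000249), and Car9, a carbonic anhydrase, rose in IL-34 against c-Kit- cells (log2 fold change 1.85, adjusted p = 6.26e-05).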

How the data were processed

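RNA of sorted leukemia cells was read in the IL-34, c-Kit+ and c-Kit- groups, with 3 libraries per group. The authors deposited 1 table of 55536 genes with a column per library, and its values were read as TPM because the 9 column totals all lie just under the TPM total and the header names no unit. The labels and data statement call the assay RNA sequencing of total RNA, while the methods text calls it a microarray. The aligner, annotation and genome build are not given in the sources used here, and no counts were used, so no counting interval is given. One c-Kit- column is named without its minus sign, and the only sample title left for it was c-Kit- replicate 3. Of the identifiers, 55450 matched GENCODE M21 (GRCm38), which gave coordinates. Promoter windows came from RefSeq (GRCm38.p6).

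Values were taken as log2(TPM + 1), so folds of low genes are understated. limma 3.58.1 (R 4.3.3) fitted the 3 group means over 9 libraries with a trended prior variance. Tests were two-sided and adjusted by the Benjamini-Hochberg method over 13722 genes, those reaching 1 TPM in 3 or more libraries. The fold change of 2 and adjusted p of 0.05 follow the study. The fit was tested on simulated data. Ratios, sums and motif shares have no test. Named are all 36 members, Kit, and up to 4 called genes per list and comparison by smallest p. Il34, the markers at 0, the uncalled tested markers of eosinophils, basophils and mast cells and overlapping genes were chosen after their values were seen. The members and lists were chosen with earlier results of these data known.

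Deviations from the group means correlated at 0.202, 0.239 and 0.443 for c-Kit+ and c-Kit- libraries of the same replicate number. For libraries of these groups with different numbers the correlations lay between -0.324 and 0.159. A replicate block was therefore run as an alternative, on the data and not the labels, and the main fit holds no pairing. Between IL-34 libraries and those of the same number in the other groups the correlations lay between -0.279 and -0.000871. Alternatives were other filters, pseudocounts of 0.5 and 0.1, only the 6 libraries compared, a replicate block, a prior without trend, TPM without the 37 mitochondrially encoded genes, median-of-ratios scaling, quantile normalization and each library left out. Exons of 14 members overlap those of another gene, which reached at least 5% of the member's mean TPM for 5 (G6pdx, Pdha1, Pfkfb2, Pfkm and Pfkp). Pseudogene copies held at most 1.41% of a member's TPM (Pgam1).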

Additional observations from a re-analysis of the deposited data

How the results depend on the processing

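No called result changed direction under the alternatives run. Without a minimum fold, the members called were 7 higher and 4 lower in IL-34 against c-Kit+ cells, 13 and 10 against c-Kit- cells, and 6 and 8 in c-Kit+ against c-Kit- cells, and over all genes the same counts were 1019 and 753, 3654 and 3210, and 2649 and 2603. Of these member calls, 6 of 11, 17 of 23 and 9 of 14 were kept in every setting. With both thresholds, 2 members fell in IL-34 against c-Kit+ cells with pseudocounts of 0.5 and 0.1 and median-of-ratios scaling (Slc2a6 was added), and 2 rose in c-Kit+ against c-Kit- cells with quantile normalization (Hk3 was added). With 1 library left out these counts were 1 to 2 and 1 to 2. Median-of-ratios scaling also added Pfkp as lower in IL-34 against c-Kit- cells and G6pdx as lower in c-Kit+ against c-Kit- cells. A stricter filter, a mean of at least 5 TPM, left 309 genes higher over all genes in IL-34 against c-Kit+ cells because fewer genes were tested. The replicate block changed no member call with both thresholds. With the block over all 9 libraries, where IL-34 libraries share only a number, Pkm (adjusted p = 0.037) and Slc2a3 (adjusted p = 0.0416) passed without a minimum fold in IL-34 against c-Kit+ cells, and Ldha (adjusted p = 0.0365) in IL-34 against c-Kit- cells. Its effect on calls without a minimum fold between c-Kit+ and c-Kit- cells stands beside Ldha, Pdk1, Pdha1 and Tkt.

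Leaving the mitochondrially encoded genes out of the TPM total raised mean sums by construction. They became 16703 TPM in IL-34, 14501 TPM in c-Kit+ and 13209 TPM in c-Kit- cells for all members, 25.3, 32.2 and 88.9 TPM for glucose uptake, and 3266.5, 2338 and 2200.3 TPM for upper glycolysis. In IL-34 cells they became 508 TPM for hexokinase, 98 TPM for fructose 2,6-bisphosphate, 9788 TPM for lower glycolysis (8499.9 TPM with median-of-ratios scaling), 704 TPM for lactate, 157 TPM for the pyruvate dehydrogenase gate and 2156 TPM for pentose phosphate. The gate summed to 175 TPM in c-Kit+ cells and pentose phosphate to 1726 TPM in c-Kit- cells. With 3 libraries per group and unknown depth, small differences of low genes could not be resolved.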
